A study of Mus musculus with 4 samples.

Results

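The genes examined here were 10 genes of bone morphogenetic protein (BMP) signaling, taken by symbol from the 56748 genes of the count table: Bmp1, Bmp2, Bmp4, Bmp6, Grem1, Smad6, Smad7, Id1, Id2 and Id3. All 10 passed the expression filter and were among the 15320 genes tested. They were measured by bulk messenger RNA sequencing in 2 saline and 2 ADC/cmLumiOpto samples of mouse lung carrying 4T1 triple-negative breast cancer metastases. The hosts were female BALB/cJ mice, 7 weeks of age when 4T1-FLuc cells, a luciferase-expressing mouse mammary carcinoma line, were injected into the tail vein, and both groups received these cells. The treated mice received an anti-CD276 antibody carrying the microtubule inhibitor mertansine (CD276-DM1, the ADC) together with cmLumiOpto, an exosome-delivered AAV gene therapy that depolarizes cancer mitochondria. The dose of the ADC is 16 mg/kg in the labels, which also write "cmLumi-Olap", and 8 mg/kg in the methods. The labels give 3 weeks of treatment, and the sample titles name saline and tumor in lung. Other label entries call the controls PBS and the material tumor cells, where the methods give saline and dissociated lung tissue. Neither component was given alone in these samples, so the parts of the ADC and of cmLumiOpto in a difference cannot be told apart.

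BMPs are secreted ligands of the TGF-β superfamily. They bind a pair of type I and type II serine/threonine kinase receptors, which phosphorylate SMAD1, SMAD5 and SMAD9, and these join SMAD4 in the nucleus. The ID genes are among the most direct targets of this signal, and their products are helix-loop-helix proteins without a DNA-binding region that hold E proteins away from DNA. Smad6 and Smad7 are also induced by the signal and inhibit it, while gremlin 1, the product of Grem1, binds BMP2, BMP4 and BMP7 outside the cell. Bmp1 is a BMP in name only: it encodes an astacin metalloprotease that removes the C-terminal propeptide of fibrillar procollagens and cleaves the BMP antagonist chordin. In the lung, BMP signaling is known for its part in branching of the airways and in the endothelium of the pulmonary vessels.

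The data split the 10 genes. In CPM (counts relative to the library size, scaled by the TMM normalization of edgeR), both ADC/cmLumiOpto samples lay above both saline samples for 5 genes, namely Bmp4, Bmp6, Smad6, Id1 and Id3, and below them for 4 genes, namely Bmp1, Bmp2, Grem1 and Smad7, while Id2 overlapped. Among all tested genes, groups of 2 did not overlap in the higher direction for 28.1% and in the lower direction for 28.8%. No member passed the test: 0 of 10 members, and 0% of all tested genes, reached the threshold of 0.05 for the Benjamini-Hochberg adjusted p of the quasi-likelihood test of edgeR. Bmp1 came closest of the members, at an edgeR adjusted p of 0.126. At an unadjusted p under 0.05 in the same edgeR fit there were 6 members, 4 of them higher (Bmp4, Bmp6, Id1 and Id3), against 11.0% of all tested genes that were higher at this p, and 2 of them lower (Bmp1 and Grem1), against 12.2%. The median log2 fold change of the 10 members was 0.31, beside 0.03 for all tested genes, but it was -0.027 without ADC/cmLumiOpto replicate 2 and 0.082 with the trend of fold change on gene length removed. The number of members at this p, and which members they were, changed with the single sample left out. Without saline replicate 2, log2 fold changes of Bmp4, Bmp6, Grem1, Id1, Id3 and Bmp1 were 0.67, 0.95, -0.74, 0.56, 0.62 and -0.60. With all samples they were 1.04, 1.52, -1.80, 0.66, 0.93 and -0.61. With the gene length trend removed 2 members were at this p, Bmp6 and Grem1.

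**Figure D1:**
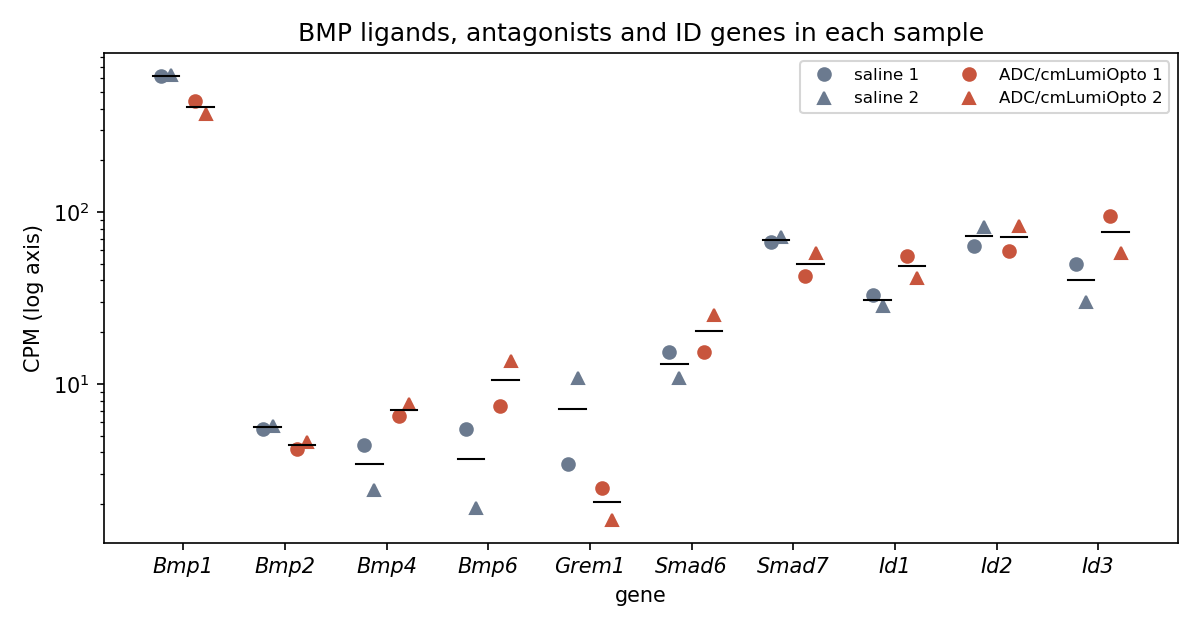
CPM of the 10 genes (log axis) in each saline sample (grey) and ADC/cmLumiOpto sample (red), with circles for replicate 1, triangles for replicate 2 and a black line at the mean of each group. The treated points lie above both saline points for Bmp4, Bmp6, Smad6, Id1 and Id3, below them for Bmp1, Bmp2, Grem1 and Smad7, and among them for Id2.

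The 4 libraries held between 15263375 and 19675436 counts, and 3 counts, taken as a floor for counting error only, corresponded to between 0.146 and 0.202 CPM. The labels and methods do not say whether each sample is 1 mouse, so p-values measure the spread between these samples. An exact permutation test of 2 samples against 2 cannot give a two-sided p under 0.333, and the tests were therefore taken from the fit across all genes. Transcripts of normal lung and of other cells differed between the samples, also within the saline group. The summed CPM of 5 alveolar type 2 markers was 1546 and 399 in saline replicates 1 and 2 and 5331 and 4504 in the treated replicates, that of 4 alveolar type 1 markers 196, 75.2, 582 and 580.2, and that of 6 fibroblast and mural markers 2628, 1925, 775 and 734. Of these lists, 4 of 5, 4 of 4 and 0 of 6 markers were higher and 0, 0 and 6 lower at an unadjusted p under 0.05 in edgeR, and no marker of them was at 0 in any sample. For 6 endothelial markers the sums were 470.1, 379.6, 462 and 687, with 2 of 6 markers higher, and for 4 neutrophil markers 1086, 443, 1103 and 7664, with 4 of 4 higher. The neutrophil difference rested largely on ADC/cmLumiOpto replicate 2. Log2 fold changes of S100a8, S100a9, Csf3r and Retnlg were 2.49, 2.61, 2.01 and 2.32, and without that sample 0.43, 0.65, 0.51 and 0.19. The 5 epithelial and carcinoma markers, Krt8 and Epcam among them, had sums of 2543, 2910.1, 2470.5 and 2378 CPM. Both treated sums were below both saline sums, with 0 of 5 markers higher and 1 lower at an unadjusted p under 0.05 in edgeR. Krt8 and Krt18 made up most of each sum, and the 5 markers did not share a direction. Log2 fold changes were -0.25 for Krt8, -0.25 for Krt18 and -0.62 for Krt14, but 0.36 for Cdh1 and 0.18 for Epcam. For Cdh1 both treated samples were above both saline samples, while Epcam overlapped. Markers of the labelled carcinoma, which normal lung epithelium in part shares, and of alveolar cells were thus present in all 4 samples. In such bulk samples fewer cells of a type and less RNA per cell cannot be told apart.

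**Figure D2:**
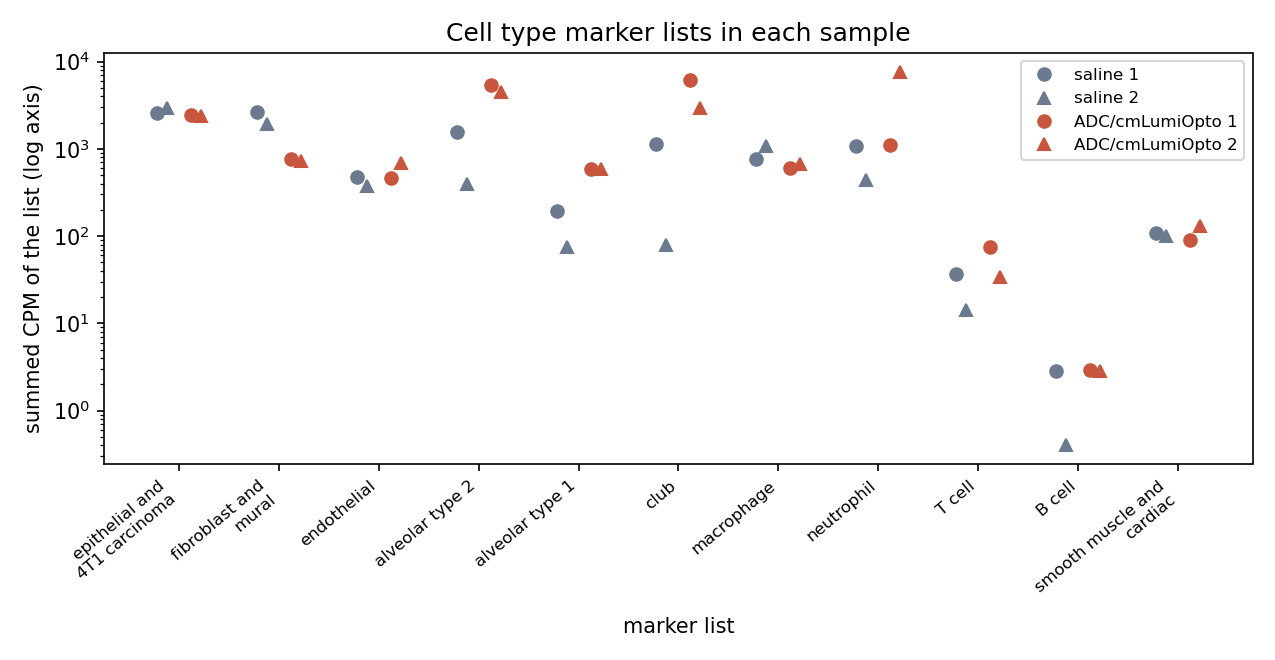
Summed CPM (log axis) of 11 lists of cell type markers in each sample, with saline samples in grey, ADC/cmLumiOpto samples in red, circles for replicate 1 and triangles for replicate 2. The alveolar type 2, alveolar type 1 and club cell sums are higher in both treated samples than in both saline samples, saline replicate 2 has the lowest of them, and the neutrophil sum is far the highest in ADC/cmLumiOpto replicate 2.

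The ligand gene Bmp4 (ENSMUSG00000021835) was at 4.44 and 2.43 CPM in the saline samples (71 and 36 counts) and at 6.52 and 7.61 CPM after ADC/cmLumiOpto (115 and 156 counts). Both treated samples were above both saline samples, and the lowest value was that of saline replicate 2. The group means were 3.43 ± 1.42 CPM (SD, n = 2) and 7.06 ± 0.771 CPM (SD, n = 2). This is a log2 fold change of 1.04 ± 0.40 (standard error; edgeR adjusted p = 0.196), which ranged from 0.67 without saline replicate 2 to 1.53 without saline replicate 1. BMP4 is a ligand of the distal lung epithelium and mesenchyme in development. Bmp6 (ENSMUSG00000039004), a ligand known from endothelium and for its control of hepcidin, had the widest spread of the ligands. It was at 5.44 and 1.89 CPM in the saline samples (87 and 28 counts) and at 7.48 and 13.6 CPM in the treated samples (132 and 278 counts). The groups did not overlap, and ADC/cmLumiOpto replicate 2 was the highest. For Bmp6 the log2 fold change was 1.52 ± 0.56 (standard error; edgeR adjusted p = 0.179), between 0.95 without saline replicate 2 and 2.46 without saline replicate 1. The 3′ end of Bmp6 shares 224 bases with exons of Txndc5 on the opposite strand, which had between 4605 and 5404 counts per sample. The labels leave undecided whether the libraries were made with or without strand information, so Txndc5 reads in that stretch and Bmp6 reads cannot be told apart. The CPM of Txndc5 was 338 and 343 with saline and 261 and 234 with ADC/cmLumiOpto, opposite in direction to Bmp6.

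Bmp2 (ENSMUSG00000027358), the closest relative of Bmp4, did not share this pattern. Its values were 5.50 and 5.66 CPM in the saline samples (88 and 84 counts) and 4.19 and 4.58 CPM in the treated samples (74 and 94 counts). The treated values were the lower ones in both samples, with a log2 fold change that differed from 0 by about its standard error. It was -0.35 ± 0.33 (standard error; edgeR adjusted p = 0.554). Per kilobase of the deposited gene length, the ratio of Bmp4 to Bmp2 was 1.28 and 0.678 in the saline samples. After treatment the ratio was 2.46 and 2.62, without overlap. This and the other ratios below were chosen after the values were seen and were not tested.

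Grem1 (ENSMUSG00000074934), the antagonist, had the log2 fold change farthest from 0 of the 10 genes with all samples in the fit, and the least even saline group. Its values were 3.44 and 10.9 CPM in saline replicates 1 and 2 (55 and 161 counts) and 2.49 and 1.61 CPM in the treated samples (44 and 33 counts). Both treated samples were below both saline samples, but saline replicate 1 was nearer to the treated samples than to saline replicate 2. For Grem1 the log2 fold change was -1.80 ± 0.61 (standard error; edgeR adjusted p = 0.162). It was -0.74 when saline replicate 2 was left out and -2.42 when saline replicate 1 was left out, and in both of these fits Bmp6 was farther from 0, at 0.95 and 2.46. The ratio of Grem1 to Bmp4 per kilobase was 0.420 and 2.42 with saline and 0.207 and 0.115 with ADC/cmLumiOpto. Per kilobase, Grem1 was thus above Bmp4 in 1 of the 4 samples, saline replicate 2, and other antagonists and ligands are not part of this ratio. Gremlin is made by fibroblasts, and the fibroblast and mural sum given above was lower in both treated samples. Within the saline group the sum was lower in replicate 2, the sample with more Grem1, but most of it was Col1a1 (2058 and 1362 CPM). Dcn and Lum were also lower in saline replicate 2. Pdgfra (211 and 240 CPM) and Acta2 (126 and 148 CPM) were higher there, and Pdgfrb was nearly equal (79.3 and 77.8 CPM). The part of fibroblast content in the Grem1 difference was not tested.

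**Figure D3:**
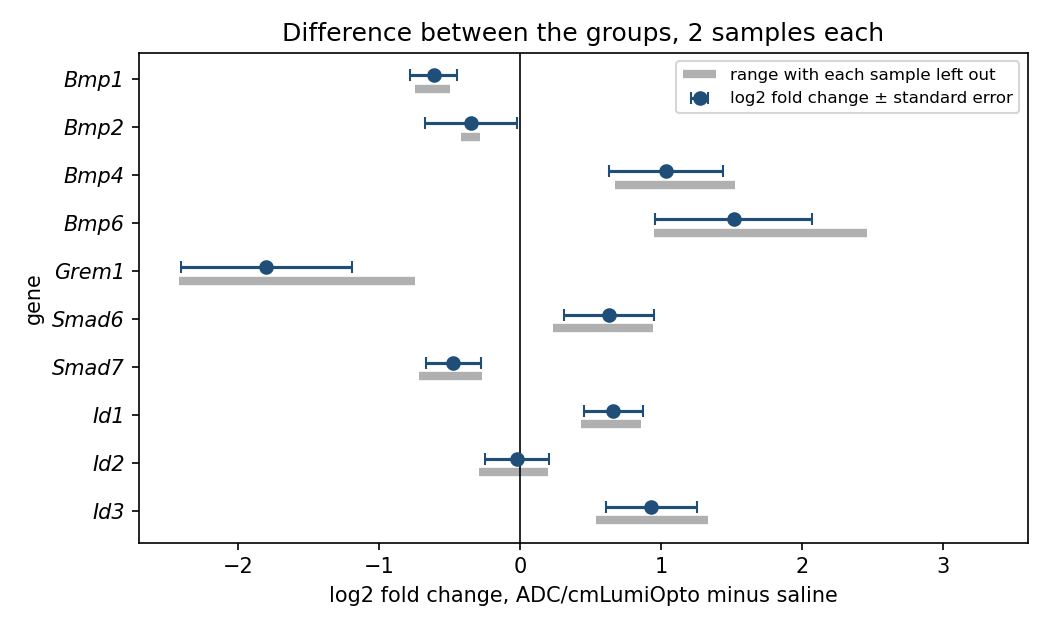
Log2 fold change (ADC/cmLumiOpto minus saline) of the 10 genes with its standard error from edgeR (blue) and the range of the value with each of the 4 samples left out in turn (grey bars). The values run from -1.80 for Grem1 to 1.52 for Bmp6, Id2 lies at -0.02 with a range on both sides of 0, and no other gene's range crosses 0.

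Of the ID genes, Id1 and Id3 were higher in both treated samples and Id2 was not. Id1 (ENSMUSG00000042745) was at 33.1 and 28.3 CPM in the saline samples and 55.7 and 41.4 CPM after ADC/cmLumiOpto, with means of 30.7 ± 3.37 CPM (SD, n = 2) and 48.6 ± 10.1 CPM (SD, n = 2). Its log2 fold change of 0.66 ± 0.21 (standard error; edgeR adjusted p = 0.146) was 0.43 without ADC/cmLumiOpto replicate 1 and 0.86 without ADC/cmLumiOpto replicate 2, its extremes when single samples were left out. Id3 (ENSMUSG00000007872) was at 50.1 and 30.1 CPM in the saline samples and at 95.2 and 58.2 CPM in the treated samples. The lower treated value was close to the higher saline value, and the log2 fold change of 0.93 ± 0.32 (standard error; edgeR adjusted p = 0.167) ranged from 0.54 without ADC/cmLumiOpto replicate 1 to 1.34 without saline replicate 1. For both genes the treated sample with the higher value was replicate 1 and the saline sample with the higher value was replicate 1, and the ratio of Id1 to Id3 per kilobase stayed between 0.904 and 1.45 in the 4 samples. Saline replicate 1 also had the higher alveolar and endothelial sums of the saline pair, and whether that content accounts for Id1 or Id3 was not tested. Id1 and Id3 have the shortest deposited gene lengths of the 10, at 1160 and 1791 bases. With the trend of fold change on gene length removed, the log2 fold changes of Id1 and Id3 were 0.34 and 0.67, with adjusted p values of 0.313 and 0.268 in edgeR. Id2 (ENSMUSG00000020644), which in leukocytes is needed for innate lymphoid and natural killer cells, was at 63.8 and 81.6 CPM in the saline samples and 59.7 and 83.5 CPM in the treated samples. Replicate 2 was the higher one in either group. The log2 fold change was -0.02 ± 0.23 (standard error; edgeR adjusted p = 0.965), and its sign changed with the scaling, to 0.061 with upper-quartile factors and 0.033 without TMM. The ratio of Id3 to Id2 per kilobase was 1.07 and 0.502 with saline and 2.17 and 0.949 with ADC/cmLumiOpto, so these ratios overlapped between the groups.

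The 2 inhibitory SMAD genes lay on opposite sides of 0. Smad6 (ENSMUSG00000036867), which acts mainly on BMP receptors, was at 15.3 and 10.9 CPM in the saline samples (244 and 161 counts) and 15.4 and 25.1 CPM in the treated samples (272 and 514 counts). ADC/cmLumiOpto replicate 1 was barely above saline replicate 1, and the separation of the groups rested on ADC/cmLumiOpto replicate 2. Its log2 fold change was 0.63 ± 0.32 (standard error; edgeR adjusted p = 0.279) and was 0.23 without that sample. Smad7 (ENSMUSG00000025880; chr18:75500600-75529006, plus strand), which also inhibits the TGF-β receptor, was at 66.6 and 71.7 CPM in the saline samples and 42.2 and 57.4 CPM in the treated samples. Both treated values were below both saline values, with a log2 fold change of -0.47 ± 0.20 (standard error; edgeR adjusted p = 0.218) that ranged from -0.72 without ADC/cmLumiOpto replicate 2 to -0.27 without ADC/cmLumiOpto replicate 1. Per kilobase, the ratio of Smad6 to Smad7 was 0.323 and 0.213 with saline and 0.515 and 0.615 with ADC/cmLumiOpto.

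Bmp1 (ENSMUSG00000022098), the protease, was the most abundant member and had the most even saline group. It was at 618 and 625 CPM in the saline samples (9879 and 9274 counts) and 442 and 371 CPM in the treated samples (7803 and 7607 counts), with means of 621 ± 5.31 CPM (SD, n = 2) and 407 ± 50.4 CPM (SD, n = 2). Both treated samples were below both saline samples by more than the spread of either group. Bmp1 was thus 1.53-fold lower, which gives a log2 fold change of -0.61 ± 0.17 (standard error; edgeR adjusted p = 0.126), with extremes of -0.74 and -0.50 when single samples were left out. Bmp1 was the single member past an adjusted p of 0.05 in DESeq2 (adjusted p = 0.0256), where 5.72% of the genes with an adjusted p were lower and 4.28% higher at this threshold. At 8870 bases Bmp1 is the longest member, and with the gene length trend removed its log2 fold change was -0.38 (adjusted p = 0.284 in edgeR). Bmp1 starts 714 bases beyond the end of Sftpc, the surfactant protein C gene of alveolar type 2 cells, on the same strand of chromosome 14. Sftpc was at 1017 and 174 CPM in the saline samples and 4321 and 3426 CPM in the treated samples. It differed several-fold within the saline pair, where Bmp1 did not, and was higher in the treated samples, where Bmp1 was lower. Whether Sftpc reads contribute to the Bmp1 counts was not tested.

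Without the expression filter, 5 members had an edgeR adjusted p under 0.05, with Bmp6, Id1 and Id3 higher (background 4.79% of 25563 genes) and Bmp1 and Grem1 lower (background 4.05%). These are 5 of the 6 genes at an unadjusted p under 0.05 in the filtered fit.

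Levels of different genes were compared per kilobase of the deposited gene length. This length is not that of the transcript forms present in these samples, so the comparison between genes is approximate. In CPM per kilobase (mean ± SD, n = 2) the order in the saline group was Bmp1 (70.0 ± 0.599), Id2 (29.8 ± 5.18), Id1 (26.5 ± 2.90), Id3 (22.4 ± 7.90), Smad7 (15.3 ± 0.804), Smad6 (4.07 ± 0.971), Grem1 (1.72 ± 1.26), Bmp2 (1.57 ± 0.0319), Bmp4 (1.53 ± 0.633) and Bmp6 (0.939 ± 0.644). Neighbours from Id2 to Id3, and from Grem1 to Bmp6, did not differ beyond the ranges of their 2 samples. In the ADC/cmLumiOpto group the order was Bmp1 (45.8 ± 5.68), Id3 (42.8 ± 14.6), Id1 (41.9 ± 8.69), Id2 (29.4 ± 6.90), Smad7 (11.0 ± 2.38), Smad6 (6.32 ± 2.13), Bmp4 (3.14 ± 0.343), Bmp6 (2.70 ± 1.10), Bmp2 (1.23 ± 0.0776) and Grem1 (0.495 ± 0.151). There the ranges overlapped for Bmp1 with Id3, Id3 with Id1, and Bmp4 with Bmp6. The mean of Grem1 was thus level with those of Bmp2, Bmp4 and Bmp6 in the saline group, but its 2 saline samples were unlike. Per kilobase, Grem1 was the lowest of the 10 in saline replicate 1, as in the treated samples. In saline replicate 2 it was above Bmp2, Bmp4 and Bmp6. Bmp7, a ligand outside the 10, was at 29.8 ± 10.7 in the saline group and 11.0 ± 3.02 in the treated group.

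The 10 genes are listed with positions of the mouse genome that differ from GRCm38, the build in the methods (0 of the 10 spans were equal, and 2.83% of all shared identifiers), while the processing notes of the submitters name mm39. In the coordinates of the deposited table, Bmp1 spans chr14:70711998-70757674 (minus strand), Bmp4 chr14:46620977-46628126 (minus), Bmp2 chr2:133394079-133404805 (plus), Bmp6 chr13:38529083-38684278 (plus), Grem1 chr2:113576509-113588991 (minus), Smad6 chr9:63860358-63929341 (minus), Id1 chr2:152578171-152579330 (plus), Id2 chr12:25143798-25147139 (minus) and Id3 chr4:135870808-135873066 (plus). All are protein-coding.

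BMP-activated SMADs are known to bind GC-rich elements in promoters of their targets, so the 250 bases before the start are shown for 3 members. These were printed because their windows held no annotated exon, not because of their direction in the treated samples. Sequences are from RefSeq on GRCm38.p6, at chr14:46390670-46390919 (minus strand) for Bmp4, chr9:64022060-64022309 (minus) for Smad6 and chr2:113758649-113758898 (minus) for Grem1, written 5′ to 3′ on the strand of the gene. RefSeq windows were matched for 6 members, and these 3 held no annotated exon. Capitals mark the elements GGCGCC and GGAGCC on either strand, so that GGAGCC may be written as GGCTCC.
Bmp4: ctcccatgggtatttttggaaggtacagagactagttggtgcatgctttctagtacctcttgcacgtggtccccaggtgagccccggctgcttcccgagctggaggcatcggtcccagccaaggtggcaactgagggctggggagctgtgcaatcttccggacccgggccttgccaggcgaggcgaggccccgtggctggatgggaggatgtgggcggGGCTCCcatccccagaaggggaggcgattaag
Smad6: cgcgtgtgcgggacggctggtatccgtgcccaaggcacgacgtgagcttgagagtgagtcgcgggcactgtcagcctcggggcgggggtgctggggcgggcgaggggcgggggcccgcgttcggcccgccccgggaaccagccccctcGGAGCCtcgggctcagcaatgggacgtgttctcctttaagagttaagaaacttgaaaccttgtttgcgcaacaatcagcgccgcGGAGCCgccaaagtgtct
Grem1: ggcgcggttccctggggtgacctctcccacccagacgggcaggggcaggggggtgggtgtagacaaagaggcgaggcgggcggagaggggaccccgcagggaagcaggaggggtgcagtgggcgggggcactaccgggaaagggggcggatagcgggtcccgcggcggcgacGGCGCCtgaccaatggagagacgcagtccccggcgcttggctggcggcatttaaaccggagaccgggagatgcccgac
GGAGCC was found in Bmp4 (1 match), Smad6 (2 matches), Id2 and Id3 (1 match each), but in neither Grem1 nor Bmp6, and 25.97% of 32851 windows of this length held it. GGCGCC was found in Grem1 and Id2, beside 9.59% of all windows, and the palindrome GTCTAGAC in none of the 6, beside 0.167%. The 3 printed windows were GC-rich, at 63.2%, 66.8% and 72.0% G and C in Bmp4, Smad6 and Grem1. A match is a run of letters and not a known binding site.

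The other genes of the pathway were read from the same fit in 7 lists by role. Of 68 genes, 51 were tested, and 0 had an adjusted p under 0.05 in edgeR. At an unadjusted p under 0.05 there were 3 higher and 24 lower genes among the 51, beside the shares of 11.0% and 12.2% of all tested genes, and the median log2 fold change was -0.37. DESeq2 called 15 of them, 3 higher and 12 lower. Of all genes with an adjusted p in DESeq2, 4.28% were called higher and 5.72% lower. Of the 24 lower genes, 8 were E proteins or relatives and substrates of BMP1. Without saline replicate 2, the 27 genes at an unadjusted p under 0.05 in edgeR were 15. All 6 fibroblast and mural markers were lower at this p, and their part in these counts was not tested.

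Among 12 tested receptors and co-receptors, 1 was higher and 4 lower at an unadjusted p under 0.05. Acvrl1 (ENSMUSG00000000530), which encodes ALK1, the type I receptor of endothelium, was at 51.6 and 23.9 CPM in the saline samples and 62.8 and 97.2 CPM in the treated samples, which gives a log2 fold change of 1.08 ± 0.38 (standard error; edgeR adjusted p = 0.172). The log2 fold changes of the 6 endothelial markers were 1.41 for Tek, 1.37 for Cldn5, 0.52 for Pecam1, 0.36 for Tie1, 0.02 for Cdh5 and -0.17 for Kdr, and the part of endothelial content in the Acvrl1 difference was not tested. Acvr2b, a type II receptor, was at 5.56 and 7.55 CPM against 2.89 and 3.32 CPM, and Tgfbr3, the co-receptor betaglycan, at 83.3 and 105 CPM against 53.3 and 65.3 CPM, with log2 fold changes of -1.08 and -0.67. Of 4 tested ligands outside the members, 1 was at an unadjusted p under 0.05, on the lower side. This was Bmp7 (ENSMUSG00000008999), an epithelial ligand, at 89.5 and 150.3 CPM in the saline samples and 52.8 and 35.6 CPM in the treated samples, which gives a log2 fold change of -1.44 ± 0.31 (standard error; edgeR adjusted p = 0.116). Per kilobase, the mean of Bmp7 was 29.8 ± 10.7 CPM in the saline group and 11.0 ± 3.02 CPM in the treated group (SD, n = 2), above the means of Bmp2, Bmp4 and Bmp6 in both groups, and its direction was opposite to that of Bmp4 and Bmp6. Neither Bmp3 nor Gdf6 was at an unadjusted p under 0.05. The counts of Bmp3 were 51 and 8 with saline, then 122 and 101 with ADC/cmLumiOpto, and its log2 fold change of 1.65 was 0.89 without saline replicate 2 and 3.43 without saline replicate 1. Gdf6 overlapped between the groups, and its log2 fold change of -0.96 was -1.74 without ADC/cmLumiOpto replicate 1 and -0.12 without saline replicate 1. The other 7 ligands were too low to be tested.

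Of 10 tested extracellular antagonists and modulators, 0 were higher and 5 lower at an unadjusted p under 0.05. Fst, the activin-binding follistatin, was at 38.9 and 52.4 CPM in the saline samples and 26.4 and 28.9 CPM in the treated samples. Fstl1, a secreted glycoprotein of mesenchyme, was at 354 and 277 against 221 and 125 CPM, and Htra1, a secreted serine protease, at 375 and 363 against 272 and 202 CPM. Their log2 fold changes were -0.72, -0.87 and -0.64, on the same side as that of Grem1. Noggin and chordin, the classical antagonists, were scarce: Nog had 8, 0, 2 and 12 counts and was not tested, and Chrd had 27, 38, 43 and 37 counts with a log2 fold change of -0.0031.

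Of 9 signal transducers and their brakes, 0 were higher and 5 lower at an unadjusted p under 0.05, and 8 of the 9 had both treated values under both saline values, as did 28.8% of all tested genes. The exception was Smad9, at 20 and 0 counts with saline and 25 and 26 with ADC/cmLumiOpto. Smad1 (ENSMUSG00000031681), the BMP-activated SMAD, was at 85.8 and 104 CPM in the saline samples and 44.9 and 53.2 CPM in the treated samples, which gives a log2 fold change of -0.95 ± 0.19 (standard error; edgeR adjusted p = 0.116) with extremes of -1.10 and -0.80 when single samples were left out. Smurf1, a ubiquitin ligase that marks SMAD1 and SMAD5 for degradation, and Ski, a nuclear co-repressor of SMADs, had log2 fold changes of -0.61 and -0.59. The 5 genes at an unadjusted p under 0.05 were the transducers Smad1 and Smad5 and the brakes Smurf1, Ski and Skil. The other target genes also stood on both sides: 1 of 5 tested was higher and 1 lower at an unadjusted p under 0.05. Hey1 (ENSMUSG00000040289), a repressor also induced by NOTCH, was at 5.25 and 2.36 CPM in the saline samples and 12.6 and 11.8 CPM in the treated samples, which gives a log2 fold change of 1.68 ± 0.42 (standard error; edgeR adjusted p = 0.123). Runx2 (ENSMUSG00000039153), the osteoblast transcription factor, was at 49.7 and 65.8 CPM against 23.2 and 29.4 CPM, which gives a log2 fold change of -1.13 ± 0.22 (standard error; edgeR adjusted p = 0.116). Id4, the remaining ID gene, was low, at 28 and 22 counts with saline and 39 and 35 with ADC/cmLumiOpto, with a log2 fold change of 0.27.

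**Figure D4:**
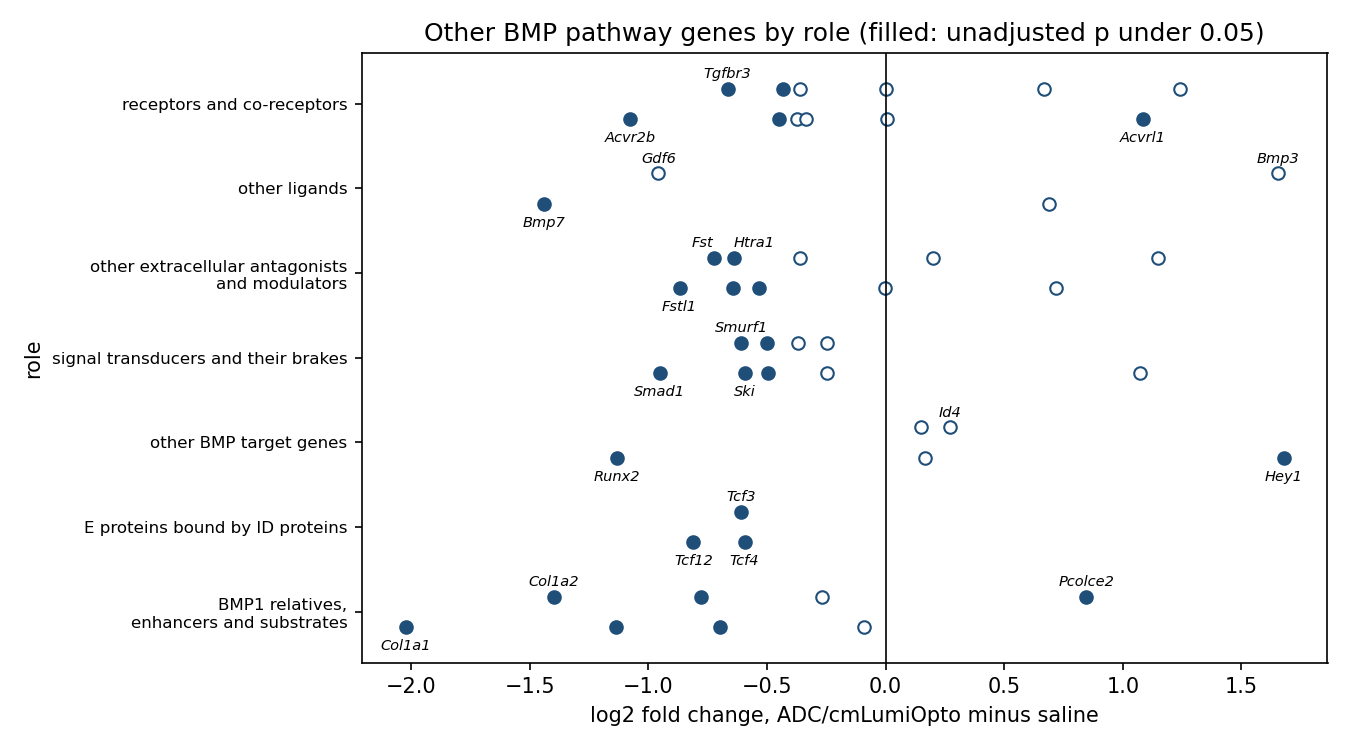
Log2 fold change (ADC/cmLumiOpto minus saline) of each of the 51 tested pathway genes outside the 10 members, in rows by role, with filled points at an unadjusted p under 0.05 in edgeR and names for the 3 smallest p values of each row. Most filled points, 24 of 27, lie on the lower side, and those on the higher side are Acvrl1, Hey1 and Pcolce2.

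The 3 E proteins that ID proteins bind were all lower at an unadjusted p under 0.05. Tcf3 was at 146 and 169 CPM in the saline samples and 101 and 106 CPM in the treated samples, Tcf4 at 279 and 289 against 184 and 193 CPM, and Tcf12 at 126 and 153 against 78.5 and 80.6 CPM. The log2 fold changes were -0.61, -0.59 and -0.81, with edgeR adjusted p values of 0.1248, 0.123 and 0.116, so that for Id1 and Id3 and their partners the treated samples lay on opposite sides of the saline samples. With the gene length trend removed, the log2 fold changes were -0.62, -0.16 and -0.46. The value of Tcf4, the longest of them at 27382 bases, thus depended most on gene length.

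Among the relatives, enhancers and substrates of BMP1, 1 of 8 tested genes was higher and 5 were lower at an unadjusted p under 0.05. The substrates Col1a1 and Col1a2, the fibrillar collagen chains whose propeptide BMP1 removes, had log2 fold changes of -2.02 and -1.40 beside -0.61 for Bmp1. Col1a1 is also 1 of the 6 fibroblast and mural markers, all lower at an unadjusted p under 0.05 in edgeR, and the part of fibroblast content in the values of the collagens and of Bmp1 was not tested. Pcolce2, an enhancer of the same cleavage, was at 32.8 and 32.02 CPM in the saline samples and 63.0 and 53.4 CPM in the treated samples, which gives a log2 fold change of 0.85 ± 0.17 (standard error; edgeR adjusted p = 0.116). Its relative Pcolce had a log2 fold change of -0.09. The tolloid-like proteases that share the activity of BMP1 were scarce, with 17, 12, 11 and 19 counts of Tll1 and 0 counts of Tll2 in every sample.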

How the data were processed

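Messenger RNA of 2 saline and 2 ADC/cmLumiOpto samples was sequenced, and the authors deposited counts, whole numbers of reads per gene, without normalization. The methods give 4 samples per group, while the deposited counts hold 2 per group, all of which were analysed here. The methods name HISAT2 and GRCm38, the processing notes HISAT2 and mm39, and the counting program is not given in the sources used here. Gene positions are therefore those of the deposited table. The counts as deposited were tested with edgeR 4.0.16 (R 4.3.3), using filterByExpr defaults (minimum count 10, minimum total 15), TMM, estimateDisp, glmQLFit and glmQLFTest, two-sided, with Benjamini-Hochberg adjustment over all 15320 tested genes and a threshold of 0.05. The standard error is the size of the log2 fold change divided by the square root of F. Total counts were 15263375 to 19675436 per sample, and floors cover counting error only.

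The members and gene lists were chosen with earlier results of these data known. Named genes were the 10 members, the 3 tested genes with the smallest p in each of 7 lists by role, and Sftpc as the neighbour of Bmp1. Txndc5, Smad5, Smad9, Skil, Pcolce, Chrd, Nog, Tll1, Tll2 and the endothelial, neutrophil, fibroblast, mural, epithelial and carcinoma markers were named after their values were seen. Counts by direction and medians describe the lists, without a set test. The alternatives were DESeq2 1.42.0, the edgeR exact test, other normalizations and filters, protein-coding genes, removal of length or GC trends (lowess span 0.3, GC from GENCODE transcripts, 99.0% of tested genes), a replicate block and each sample left out. With a sample left out, the lone sample of its group was assumed to vary like the other group. The procedure was tested on simulated data.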

Additional observations from a re-analysis of the deposited data

How the results depend on the processing

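Bmp1, Bmp2, Bmp4, Bmp6, Grem1, Smad6, Smad7, Id1 and Id3 kept their direction under all 15 alternatives. The log2 fold change of Id2, -0.02, was 0.033 without TMM, 0.061 with upper-quartile factors, 0.016 with 10 counts in every sample, 0.0044 with protein-coding genes, 0.014 with the GC trend removed, and between -0.29 and 0.20 with each sample left out. No member was called with adjusted p under 0.05 in edgeR, where 6 members had an unadjusted p under 0.05. DESeq2 called 1 (Bmp1), the fit without expression filter 5, and the other normalizations and filters 0. All tested genes called numbered 0, against 1353 in DESeq2, 1170 in the edgeR exact test and 2259 without filter. Pathway genes called numbered 0, against 15, 9 and 22 in the same alternatives. With each sample left out, the ranges were 0 to 218 for all genes (218 without saline replicate 1, 10 without saline replicate 2 and 5 without ADC/cmLumiOpto replicate 1), 0 to 3 for pathway genes called, 15 to 23 for pathway genes at an unadjusted p under 0.05 (27 with all samples; 15 without saline replicate 2), 0 to 5 for members at that p, and -0.027 to 0.32 for the members' median log2 fold change. The value of -0.027 was without ADC/cmLumiOpto replicate 2. With the gene length trend removed, 2 members were at an unadjusted p under 0.05 and the median was 0.082 (0.075 with the replicate block as well). The cause of these differences was not tested.

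The groups share replicate numbers, which the labels do not tie to a shared animal or day, and the deviations of same-numbered samples had a correlation of 0.0985 across genes, so the numbers were not taken to pair the samples. With the replicate block, 607 genes, 1 member (Id3, adjusted p = 0.0337 in edgeR) and 9 pathway genes were called, and with the block and the length trend removed 2 genes and no member. Depth limits the low genes: Bmp2, Bmp4, Bmp6 and Grem1 had between 28 and 278 counts.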
